A study of Mus musculus with 6 samples.

Results

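Chemokine ligands are small secreted proteins that draw leukocytes along a gradient, and 10 of them that macrophages can make are described here: Ccl2, Ccl7, Ccl3, Ccl4, Ccl6, Ccl9, Cxcl1, Cxcl2, Cxcl10 and Pf4. They were taken by gene symbol, as 10 of the 24054 genes in the expression table, and all 10 were found and passed the filter on low counts that left 12689 genes for testing. The cells were bone marrow-derived macrophages, which are marrow cells of C57BL/6 mice kept for 7 days in L929-conditioned medium, which carries the macrophage growth factor that these fibroblasts secrete. Fermt3 encodes kindlin-3, a protein of blood cells that attaches to integrin tails and switches integrins on, and the mutant mice are labelled Kindlin3-integrin mutant, with the exact allele not given in the labels. The lipid loading of macrophages in arterial plaques was modelled with oxidised low-density lipoprotein (oxLDL), given at 50 µg/ml for 24 hours. The 6 libraries of polyadenylated RNA were 2 of mutant cells with oxLDL, 2 of mutant cells without treatment, 1 of wild-type cells with oxLDL and 1 of wild-type cells without treatment. Whether the libraries of a group came from different mice is not stated in the labels, and p-values therefore cover the spread between these libraries alone, which may be technical.

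Chemokine ligands fall into families by the spacing of their first cysteines, CC or CXC, and act through G protein-coupled receptors on the responding cell. In macrophages most of them are induced at the level of transcription by NF-kB, AP-1 and, for some, interferon-activated factors, and many of their messages are short-lived because decay proteins bind AU-rich stretches in them. In the arterial wall they are best known for bringing monocytes, T cells and neutrophils into lesions.

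Total counts assigned to genes were 24273551 and 19684990 in the mutant oxLDL libraries, 11281692 and 13597908 in the mutant untreated ones, 15807998 in wild type oxLDL and 21081706 in wild type untreated. Levels are given in CPM, which are counts divided by library size after TMM scaling, a correction for the composition of each library, in the order replicate 1, replicate 2 for the mutant. A count of 3, taken as the floor of detection, was worth between 0.122 and 0.265 CPM, and intervals and floors cover counting error only. Fermt3 had 146 and 153 CPM in mutant oxLDL, 241 and 249.0 in mutant untreated, 188 in wild type oxLDL and 403 in wild type untreated. Of 11 macrophage markers 10 were in the table and tested, with a summed level between 10538 and 30798 CPM, of which Lyz2 was the largest part.

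In the RefSeq gene order of mouse build GRCm38.p6, Ccl2 and Ccl7 are neighbours on chromosome 11, and Ccl9, Ccl6, Ccl3 and Ccl4 follow each other elsewhere on that chromosome. Cxcl1 and Cxcl2 are neighbours on chromosome 5, Pf4 lies on that chromosome between Ppbp and Cxcl3, and Cxcl10 lies there between Art3 and Nup54. Promoter sequences, from 250 bases before to 50 after the gene start, were at hand in RefSeq for 7 of the 10 members. The promoters of the 3 members with the largest falls under oxLDL, Cxcl10, Cxcl2 and Cxcl1, and of Ccl9, the other member with matches, are printed with matches to 4 motifs in capitals, written 5' to 3' on the strand of the gene:
Cxcl10 promoter, chr5:92348840-92349139, minus strand: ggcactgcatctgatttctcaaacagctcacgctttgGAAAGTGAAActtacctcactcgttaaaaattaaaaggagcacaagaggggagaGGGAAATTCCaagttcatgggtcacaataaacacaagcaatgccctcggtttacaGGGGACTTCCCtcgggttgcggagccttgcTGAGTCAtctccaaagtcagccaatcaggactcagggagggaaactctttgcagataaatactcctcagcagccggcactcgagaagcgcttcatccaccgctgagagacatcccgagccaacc
Cxcl2 promoter, chr5:90903649-90903948, plus strand: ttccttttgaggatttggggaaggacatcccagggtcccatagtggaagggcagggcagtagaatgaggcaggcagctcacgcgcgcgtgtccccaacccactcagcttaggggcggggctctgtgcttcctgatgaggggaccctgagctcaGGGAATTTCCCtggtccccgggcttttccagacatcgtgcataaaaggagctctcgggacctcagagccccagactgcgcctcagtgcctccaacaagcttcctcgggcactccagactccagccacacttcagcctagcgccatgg
Cxcl1 promoter, chr5:90890995-90891294, plus strand: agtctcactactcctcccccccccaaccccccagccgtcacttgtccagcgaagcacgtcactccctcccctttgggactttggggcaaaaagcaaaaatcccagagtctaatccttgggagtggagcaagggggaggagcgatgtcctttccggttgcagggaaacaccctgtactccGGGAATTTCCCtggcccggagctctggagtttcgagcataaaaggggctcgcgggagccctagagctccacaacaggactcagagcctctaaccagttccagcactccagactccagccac
Ccl9 promoter, chr11:83578587-83578886, minus strand: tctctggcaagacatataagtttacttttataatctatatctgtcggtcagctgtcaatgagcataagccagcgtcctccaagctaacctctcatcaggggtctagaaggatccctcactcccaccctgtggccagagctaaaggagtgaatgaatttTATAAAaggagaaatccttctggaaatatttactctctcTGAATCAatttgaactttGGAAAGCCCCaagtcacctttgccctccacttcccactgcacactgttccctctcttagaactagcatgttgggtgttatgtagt

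The motifs searched were the 10-base kappaB motif, the interferon-stimulated response element (ISRE), which is GAAA and GAAA with any 2 bases between them, and the AP-1 element TGANTCA on both strands, and the TATA box TATAAA on the strand of the gene. A kappaB match was held by 8.46% of 32841 mouse promoters of this length, an ISRE match by 3.44%, an AP-1 match by 7.81% and a TATA box by 8.32%. Cxcl1 and Cxcl2 hold the same 11 letters, GGGAATTTCCC, which are a pair of overlapping kappaB matches on opposite strands, at -71 to -61 from the gene start in Cxcl1 and at -97 to -87 in Cxcl2. The capitals in Cxcl10 are, from the left, an ISRE at -213 to -204, a kappaB match at -159 to -150, overlapping kappaB matches at -104 to -94 and an AP-1 match at -74 to -68. Those in Ccl9 are a TATA box at -92 to -87, an AP-1 match at -53 to -47 and a kappaB match on the opposite strand at -35 to -26. The promoters of Ccl3, Ccl6 and Pf4 held none of these letters. A match describes the sequence and is not a measured binding site.

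The response to oxLDL had the most libraries, 3 against 3 across genotypes and 2 against 2 within the mutant. In mutant macrophages 8 of the 10 ligands fell with oxLDL, none rose, and Ccl6 and Pf4 did not pass the test. The falls ran from less than 2-fold for Ccl3 and Ccl4 to more than 100-fold for Cxcl10. Over all 12689 genes tested, 19.1% were called lower and 16.5% higher in this comparison, 35.6% in all, and the median log2 fold change was -2.00 over the 10 ligands and 0.01 over all genes. Cxcl1, Cxcl2 and Cxcl10 reached the filter level of 0.563 CPM in untreated libraries alone, so they had to differ in that direction to be tested, and of the other 7 ligands 5 fell. The median of -2.00 includes those 3, and the middle value of the other 7 was that of Ccl3, at -0.93. In bulk RNA, fewer cells that make a ligand and less of its RNA per cell cannot be told apart.

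Markers of cell types moved with this comparison too. Of the 10 macrophage markers tested, 5 were lower and 2 higher with oxLDL in the mutant, and their summed level was 19868 and 14615 CPM in mutant oxLDL, against 30798 and 24430 CPM in mutant untreated cells. Emr1, which encodes the macrophage surface protein F4/80, had 823 and 816 CPM in mutant oxLDL, against 4426 and 4418 CPM in mutant untreated cells, whereas Cd68, a protein of macrophage lysosomes, had 2136 and 1884 CPM in mutant oxLDL, against 1337 and 966 CPM in mutant untreated cells. All 16 pancreatic genes were called higher, with a sum of 195 and 155 CPM in mutant oxLDL, against 3.09 and 3.47 CPM in mutant untreated cells, while in wild type it was 1.79 CPM with oxLDL, against 263 CPM untreated. Kit, a receptor of mast cells and progenitors, had 69.6 and 24.1 CPM in mutant oxLDL, against 4.94 and 2.62 CPM in mutant untreated cells. The part of these markers in the fall of the ligands was not tested, apart from leaving the pancreatic genes out before scaling, after which 8 ligands were called, and 4494 of 12673 genes.

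Cxcl10 is the CXCR3 ligand that draws activated T cells and natural killer cells and is a classic interferon-induced gene. With oxLDL the mutant libraries had 0.162 and 0 CPM, against 16.9 and 15.2 CPM in untreated mutant cells. In wild type it had 0 CPM with oxLDL, against 3.02 CPM untreated. Every oxLDL library lay below every untreated one, and 2 of the 3 oxLDL libraries had no count. In the mutant the pooled 4 counts against 407 made it 179-fold lower with oxLDL (95% counting interval 69.4 to 661), and the fitted log2 fold change was -7.39 ± 0.54 (SE, edgeR quasi-likelihood test, adjusted p = 0.000564). In wild type 0 counts against 59 made it at least 15.7-fold lower, with a floor of 3 counts.

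Cxcl1 and Cxcl2 are the CXCR2 ligands that draw neutrophils. Cxcl2 had 0.365 and 0.0495 CPM in mutant cells with oxLDL, against 9.62 and 10.7 CPM in untreated mutant cells. In wild type it had 0.256 CPM with oxLDL, against 1.33 CPM untreated. The oxLDL libraries again lay below all untreated ones. The log2 fold change in the mutant was -5.49 ± 0.55 (SE, adjusted p = 0.00136), and the pooled counts were 45.8-fold lower (95% counting interval 24.5 to 96.6). In wild type 4 counts against 26 made Cxcl2 5.20-fold lower, with a wide counting interval of 1.80 to 20.5. Of the stretches of 75 bases in Cxcl2, 4.57% also occur in another gene, its paralogue Cxcl3, and no other ligand of the 10 shares any.

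Cxcl1 had the fewest counts of the 10 ligands over the 6 libraries. Mutant cells with oxLDL had 0.0811 and 0.0495 CPM, which are 2 counts and 1 count, against 1.32 and 1.56 CPM in the mutant untreated ones, which are 15 and 22 counts. In wild type it had 1 count with oxLDL and 0 counts untreated, so no fold change can be given there. Its fall was thus measured in the mutant, with a log2 value of -4.30 ± 0.69 (SE, adjusted p = 0.00620), and the wild-type untreated library lay below all 3 oxLDL libraries. It passed the filter only through the 2 mutant untreated libraries, so it had to be higher there, and its call is no independent support. The pooled mutant counts were 21.7-fold lower, with a counting interval from 6.88 to 110.

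**Figure D1:**
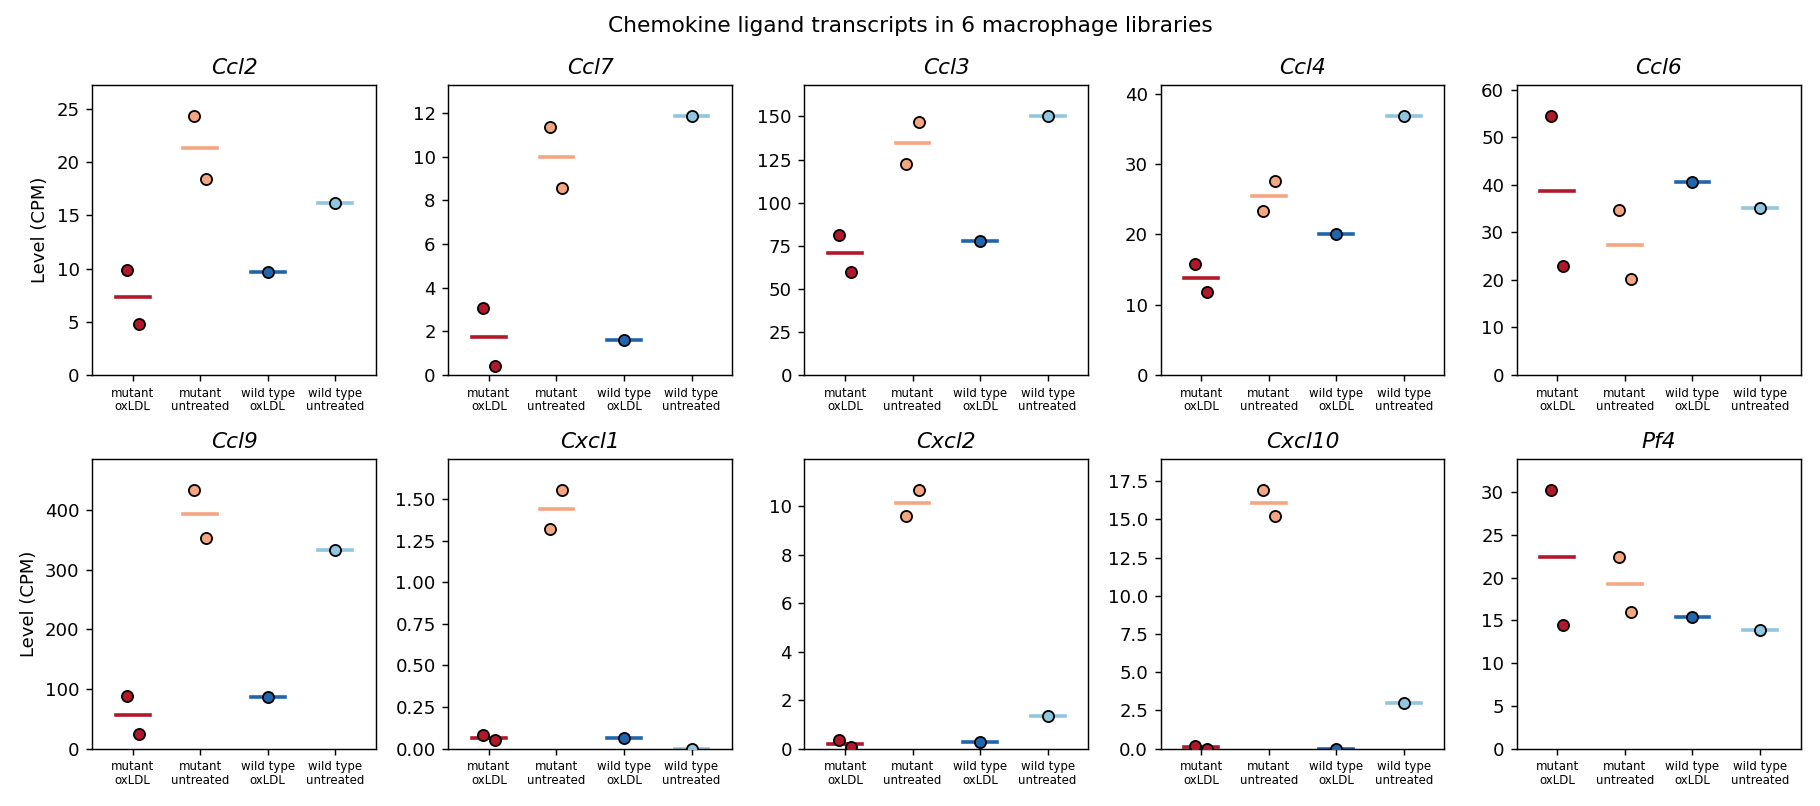
CPM of each of the 10 chemokine ligands in the 6 libraries, on linear axes from 0 that differ between panels, with 1 point per library and a line at the mean of each group. Cxcl10, Cxcl2 and Cxcl1 are at most 0.365 CPM in every oxLDL library, while Ccl6 and Pf4 keep overlapping values in treated and untreated cells.

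Ccl2 and Ccl7 are the CCR2 ligands that bring inflammatory monocytes out of the marrow and into lesions. Ccl2 had 9.90 and 4.80 CPM in mutant oxLDL, against 24.4 and 18.4 CPM in mutant untreated cells. In wild type it had 9.65 CPM with oxLDL, against 16.2 CPM untreated. The groups did not overlap, and the log2 fold change was -1.53 ± 0.35 in the mutant (SE, adjusted p = 0.0191) and -1.27 ± 0.31 across genotypes (adjusted p = 0.0177). Ccl7 had 3.08 and 0.396 CPM in mutant oxLDL, against 11.4 and 8.56 CPM in mutant untreated cells, and 1.60 CPM with oxLDL against 11.9 CPM untreated in wild type. Its untreated libraries were close to each other, whereas the oxLDL pair differed widely. The log2 fold change was -2.47 ± 0.71 in the mutant (SE, adjusted p = 0.0409) and -2.61 ± 0.59 across genotypes (adjusted p = 0.0135). Without mutant untreated replicate 1, the call in the mutant ended for Ccl2 (adjusted p = 0.0885) and Ccl7 (0.141), and without mutant untreated replicate 2 for Ccl7 (0.101), each such fit resting on 1 mutant untreated library.

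Ccl3 and Ccl4 are a closely related pair that act on monocytes and T cells, and Ccl3 binds CCR1 among its receptors. Ccl3 had 81.4 and 59.9 CPM in mutant oxLDL, against 123 and 147 CPM in mutant untreated cells, and 77.7 CPM with oxLDL against 150.3 CPM untreated in wild type. Ccl4 had 15.7 and 11.8 CPM in mutant oxLDL, against 23.3 and 27.6 CPM in mutant untreated cells, and 20.1 CPM with oxLDL against 36.8 CPM untreated in wild type. Both stayed well measured in every library, with no overlap between treated and untreated cells, and both were lower by nearly the same amount in the 2 genotypes. The log2 fold change in the mutant was -0.93 ± 0.17 for Ccl3 (SE, adjusted p = 0.00964) and -0.88 ± 0.18 for Ccl4 (adjusted p = 0.0131). In wild type the single libraries gave -0.95 for Ccl3 and -0.87 for Ccl4. Without mutant untreated replicate 2 the adjusted p in the mutant was 0.0504 for Ccl3 and 0.0784 for Ccl4.

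Ccl9 and Ccl6 are CCR1 ligands described in mice, and they are next to each other in the genome. Ccl9 had 87.9 and 24.5 CPM in mutant oxLDL, against 434 and 353 CPM in mutant untreated cells, and 86.2 CPM with oxLDL against 333 CPM untreated in wild type. It fell without overlap, with log2 values of -2.80 ± 0.56 in the mutant (SE, adjusted p = 0.0123) and -2.52 ± 0.47 across genotypes (adjusted p = 0.00637). Ccl6 had 54.5 and 22.8 CPM in mutant oxLDL, against 34.7 and 20.1 CPM in mutant untreated cells, and 40.7 CPM with oxLDL against 35.2 CPM untreated in wild type. Its groups overlapped, and it did not pass the test at 0.51 ± 0.44 in the mutant (SE, adjusted p = 0.414). The Ccl6 value turned on 1 library: without mutant oxLDL replicate 1 it was -0.25 (adjusted p = 0.527), and without mutant oxLDL replicate 2 it was 1.01 (adjusted p = 0.0314).

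Pf4 is stored in platelet granules and is also made by macrophages in mice. It had 30.3 and 14.5 CPM in mutant oxLDL, against 22.4 and 16.0 CPM in mutant untreated cells, and 15.4 CPM with oxLDL against 13.9 CPM untreated in wild type. The values overlapped, and the log2 fold change of 0.23 ± 0.36 in the mutant did not pass the test (SE, adjusted p = 0.660). Without mutant oxLDL replicate 1 it was -0.40 (adjusted p = 0.220). Of 12 megakaryocyte and platelet markers, 5 passed the filter, and their summed level was 279 and 228 CPM in mutant oxLDL, 78.0 and 43.9 in mutant untreated, 95.8 in wild type oxLDL and 10.7 in wild type untreated. Nearly all of that sum was Vwf, at 275 and 224 CPM in mutant oxLDL, 74.5 and 40.0 in mutant untreated, 92.7 in wild type oxLDL and 7.52 in wild type untreated. The platelet genes Gp5 and Gp6 were at 0 in all 6 libraries, and Ppbp, the gene next to Pf4, was at 0 in 5 and at 0.102 CPM in wild type untreated.

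Across genotypes, with genotype as a term, the same 8 ligands were called lower and none higher, with a median log2 fold change of -1.89 against 0.01 over all genes. Of all genes tested 21.4% were called lower and 19.1% higher there, 40.5% in all. All 3 oxLDL libraries lay below all 3 untreated ones for 7 of the 10 ligands, and for 23.3% of all genes tested. They lay above for none of the 10, and for 24.5% of all genes. Cxcl1, Cxcl2 and Cxcl10 are among the 8 called, and Cxcl2 and Cxcl10 among the 7 without overlap. These 3 ligands passed the filter through untreated libraries alone, so the direction of their difference was fixed by the filter. The median of -1.89 includes them, and without them the middle value was that of Ccl3, at -0.94. The Cxcl1 call, -3.67 ± 0.97 (SE, adjusted p = 0.0247), ended when any 1 of the 4 mutant libraries was left out (adjusted p between 0.0714 and 0.121), and the Ccl2 call ended without mutant untreated replicate 1 (0.0566) or replicate 2 (0.0585).

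In wild type there was 1 library a side, so the response there has no replicate check and is described by size. By size, with at least 5 CPM in either library and at least 2-fold, 2 of the 10 ligands were lower with oxLDL, Ccl7 at a log2 value of -2.81 and Ccl9 at -1.95, and none was higher. Of the 9840 genes with that level, 11.7% were at least 2-fold lower and 7.92% at least 2-fold higher, 19.6% in all. Ccl2 gave -0.74, Ccl6 0.21 and Pf4 0.15, and the 3 remaining ligands, Cxcl1, Cxcl2 and Cxcl10, were below 5 CPM in both libraries. Cxcl10 passed the filter for testing through untreated libraries alone, so its call in the fit described next is no independent support. The fit of 4 group means, which assumes that a single library varies like the mutant pairs, called 2 ligands lower with oxLDL in wild type and none higher. These were Ccl3 at -0.95 ± 0.24 (SE, edgeR, adjusted p = 0.0390) and Cxcl10 (0.00959), while Ccl7 (0.102) and Ccl9 (0.124) did not pass. Of all genes tested that fit called 12.8% lower and 10.4% higher in wild type, 23.2% in all.

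**Figure D2:**
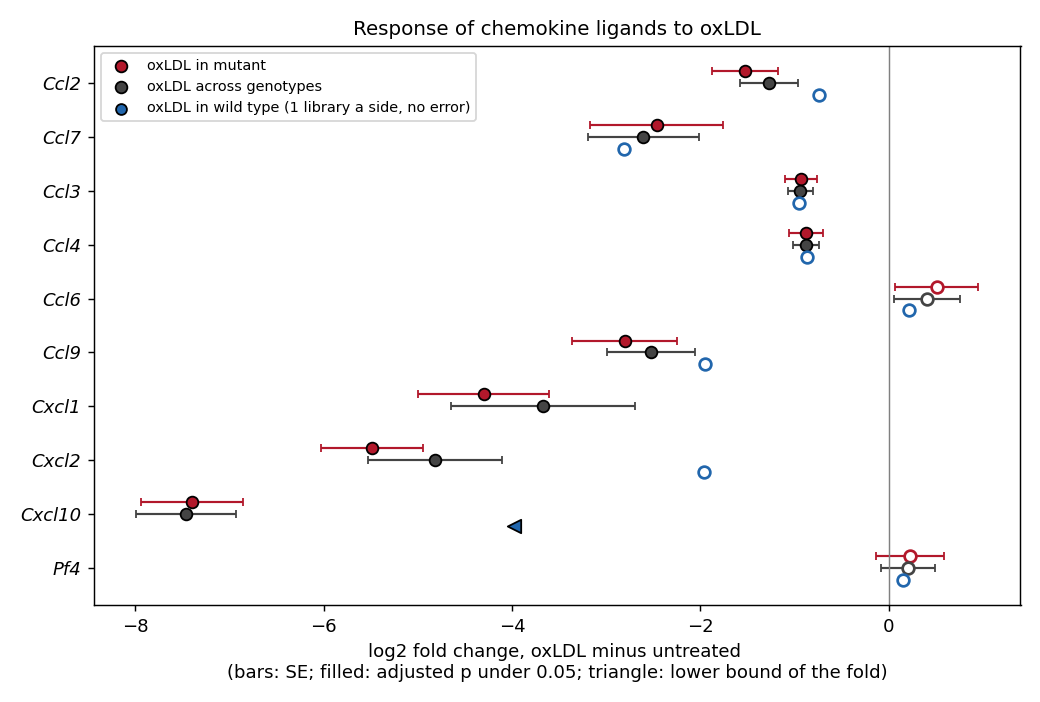
Log2 fold change of each chemokine ligand, oxLDL minus untreated, in the mutant, across genotypes and in wild type, with bars for the SE of the first 2 and filled points where the adjusted p was under 0.05. The triangle for Cxcl10 in wild type marks the fold of at least 15.7 that 0 counts allow, and no wild-type point is drawn for Cxcl1, which had 1 and 0 counts.

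Whether the response differed between genotypes was tested as the interaction, and none of the 10 ligands passed (edgeR). Of all genes that test called 0.489%, 0.299% with a lower and 0.189% with a higher response in the mutant. An unadjusted p under 0.05 was found for 1 of the 10, Cxcl1, and for 1393 of the 12689 genes tested. Cxcl1 was tested only through its level in the mutant untreated libraries, so that p is no independent support. DESeq2 called 0 ligands and 221 of those genes, and limma 0 ligands and 69 genes. The difference in response was 0.02 ± 0.30 for Ccl3 (SE, adjusted p = 0.995) and -0.01 ± 0.30 for Ccl4 (adjusted p = 0.9999). It was -0.86 ± 0.91 for Ccl9 (adjusted p = 0.786), an error wide enough to hold both no difference and a large one. Cxcl2 was at -3.14 ± 1.30, with an unadjusted p of 0.0533 in the same edgeR test and an adjusted p of 0.462. Its error leaves the size of a difference uncertain. For Ccl9 the result rested on mutant oxLDL replicate 1, without which the difference was -2.06 with an adjusted p of 0.0103.

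The genotype comparison in untreated cells set 2 mutant libraries against 1 wild-type library, which the fit assumes to vary like the mutant pairs. Cxcl1, Cxcl2 and Cxcl10 were called higher in the mutant and no ligand lower, and the 2 mutant untreated libraries also serve in the oxLDL comparison. Cxcl1 was tested only because of its level in those 2 libraries, and of the other 9 ligands 2 were called. Of all genes tested 4.24% were called higher and 2.82% lower, 7.06% in all, and the median log2 fold change was 0.32 over the ligands, also with Cxcl1 at its bound, and -0.01 over all genes.

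Cxcl10 had 16.9 and 15.2 CPM in mutant untreated cells, against 3.02 CPM in wild type untreated, and the log2 fold change was 2.41 ± 0.46 (SE, adjusted p = 0.0397). Pooled counts were 5.30 times as high in the mutant (95% counting interval 4.02 to 7.08). Cxcl2 had 9.62 and 10.7 CPM in mutant untreated cells, against 1.33 CPM in wild type untreated, and the log2 fold change was 2.93 ± 0.58 (SE, adjusted p = 0.0423), with a pooled ratio of 7.68 (5.12 to 12.0). Cxcl1, with 37 counts in the 2 mutant libraries and 0 in the wild-type one, was at least 9.47-fold higher in the mutant against a floor of 3 counts (adjusted p = 0.0367). Both mutant libraries lay above the wild-type one for these 3 ligands, but also for Ccl2, Ccl9 and Pf4, which were not called. For Ccl7, Ccl3, Ccl4 and Ccl6 both lay below it, so lying on 1 side of a single library does not set the called ligands apart. All 3 calls ended when either mutant library was left out, with adjusted p between 0.116 and 0.146 for the 3 ligands, in fits of 1 library against 1.

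The other 7 ligands did not pass in untreated cells. The log2 fold change, mutant minus wild type, was 0.40 ± 0.42 for Ccl2 (adjusted p = 0.584), -0.25 ± 0.76 for Ccl7 (0.864), -0.16 ± 0.21 for Ccl3 (0.666) and -0.53 ± 0.21 for Ccl4 (0.173). It was -0.37 ± 0.53 for Ccl6 (0.699), 0.24 ± 0.64 for Ccl9 (0.843) and 0.47 ± 0.46 for Pf4 (0.558). Markers of other cells also differed between these libraries. The summed level of 11 neutrophil markers was 19.6 and 17.8 CPM in mutant untreated cells, against 53.6 CPM in wild type untreated, where Ngp had 12.5 and S100a9 9.92 CPM against at most 0.212 CPM in the other 5 libraries. Mmp8 of that list went the other way, at 13.2 and 10.5 CPM in mutant untreated cells against 8.34 CPM. Cxcr2 was nearly level, at 5.56 and 5.66 CPM against 5.73 CPM. The summed level of 16 pancreatic genes was 3.09 and 3.47 CPM in mutant untreated cells, against 263 CPM in wild type untreated. With oxLDL those genes had 195 and 155 CPM in the mutant, against 1.79 CPM in wild type. That of 9 dendritic cell markers was 61.8 and 71.6 CPM in mutant untreated cells, against 13.6 CPM in wild type untreated. Most of the mutant sum was Itgax, at 42.5 and 46.6 CPM against 6.14 CPM, and Cd207, at 15.5 and 19.8 CPM against 1.48 CPM. Xcr1 went the other way, at 3.18 and 4.81 CPM against 5.22 CPM, as did Clec9a and Ccr7, each at most 0.307 CPM. The other markers of the list were at most 0.441 CPM in these untreated libraries. The part of these markers in the difference was not tested, apart from leaving the pancreatic genes out before scaling, after which 3 ligands were called, and 849 of 12673 genes.

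With oxLDL no ligand was called between genotypes (edgeR), and over all genes 0.481% were called, 0.299% higher and 0.181% lower in the mutant. Ccl4 alone of the 10 ligands had an unadjusted p under 0.05 in that test, as did 1819 of the 12689 genes tested. DESeq2 called 0 ligands and 391 of those genes, and limma 0 ligands and 87 genes. The median log2 fold change was -0.10 over the ligands, or -0.17 with Cxcl10 at its bound, against 0.01 over all genes. Cxcl1 and Cxcl10 were then at 4 counts or fewer in each group. Ccl4 had 15.7 and 11.8 CPM in mutant oxLDL, against 20.1 CPM in wild type oxLDL (log2 fold change -0.54 ± 0.22, adjusted p = 0.342). Ccl9 was at -0.61 ± 0.64 (adjusted p = 0.704), and at -1.81 without mutant oxLDL replicate 1 (adjusted p = 0.00732).

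Across treatments, 4 mutant libraries against 2 wild-type ones, again none of the 10 was called, against 4.05% of all genes, 2.54% higher and 1.51% lower. An unadjusted p under 0.05 was found for 4 ligands, Ccl4, Cxcl1, Cxcl2 and Cxcl10, and for 3097 of the 12689 genes tested. DESeq2 called 2 ligands and 1513 of those genes, and limma 0 ligands and 532 genes. Cxcl10 came nearest, at 2.43 ± 0.50 (SE, adjusted p = 0.0517), followed by Ccl4 at -0.54 ± 0.14 (adjusted p = 0.0901). Cxcl2 was at 2.27 ± 0.81 (adjusted p = 0.156) and Ccl2 at 0.01 ± 0.33 (adjusted p = 0.988). For each of the 10 ligands the range of the 4 mutant libraries overlapped that of the wild-type ones. Each range holds treated and untreated libraries together, so this overlap cannot show whether the genotypes differ within a treatment.

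**Figure D3:**
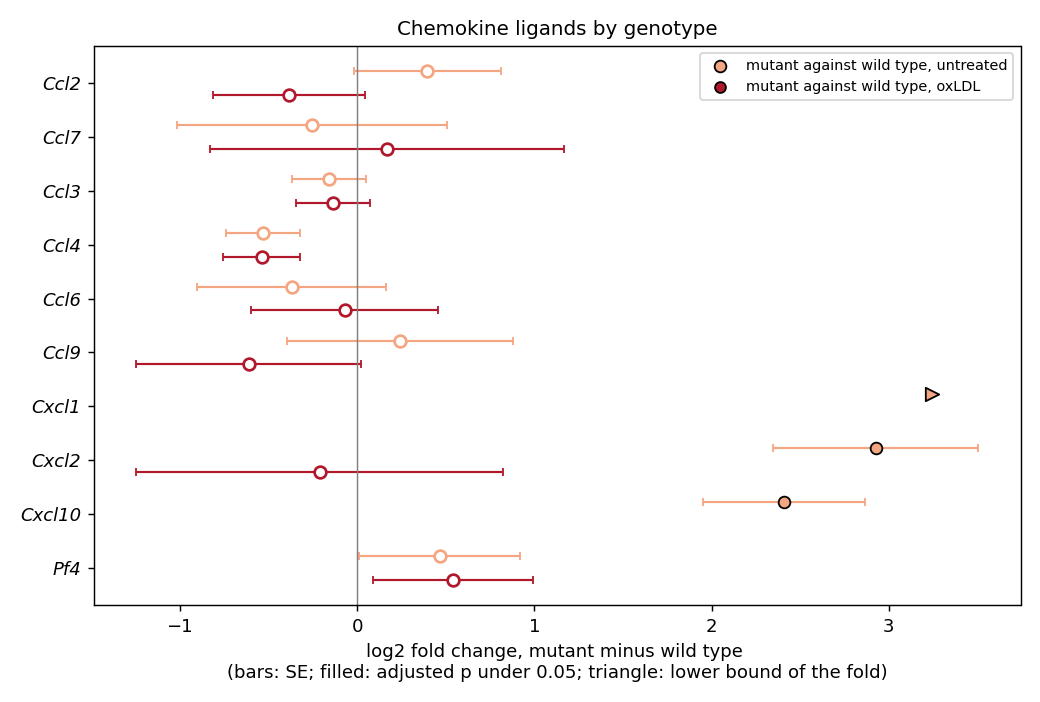
Log2 fold change of each chemokine ligand, mutant minus wild type, in untreated and in oxLDL-treated macrophages, with bars for the SE and filled points where the adjusted p was under 0.05. The triangle for untreated Cxcl1 marks the fold of at least 9.47 that 0 wild-type counts allow, and Cxcl1 and Cxcl10 have no point with oxLDL, where they had 4 counts or fewer a group.

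The 2 mutant oxLDL libraries differed from each other in these genes. All 10 ligands were higher in replicate 1 than in replicate 2, while 49.7% of all genes tested were. The log2 difference was 2.65 for Ccl7, 1.84 for Ccl9, 1.25 for Ccl6, 1.06 for Pf4 and 1.03 for Ccl2, and 0.44 for Ccl3 and 0.41 for Ccl4, against a median absolute difference of 0.16 over all genes. Cxcl10, Cxcl2 and Cxcl1 had at most 9 counts in either library. The summed level of 12 erythroid and mast cell markers was 69.8 CPM in replicate 1 and 24.1 CPM in replicate 2, nearly all of it Kit, and that of the macrophage markers 19868 and 14615 CPM, and their part in the difference was not tested. In the mutant untreated pair 6 of the 10 were higher in replicate 1, against 51.2% of all genes, and the differences were within 0.78 on the log2 scale.

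Levels of different ligands were compared per kilobase of the longest annotated protein-coding transcript, in CPM per kb. Summed over the 10, this level was 265 and 151 in mutant oxLDL, against 465 and 444 in mutant untreated cells, and 229 in wild type oxLDL against 448 in wild type untreated. Ccl3 held the first rank in each of the 6 libraries, with 40.1% and 51.7% of the sum in mutant oxLDL, 34.4% and 43.1% in mutant untreated, 44.3% in wild type oxLDL and 43.8% in wild type untreated. Ccl9 came next in untreated cells, with 144 and 118 CPM per kb in the mutant and 111 in wild type. With oxLDL the next rank belonged to Pf4 in the mutant, at 51.5 and 24.6 CPM per kb, and to Ccl4 in wild type, at 30.4.

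The share of Ccl9 was 11% and 5.39% in mutant oxLDL, against 31.0% and 26.5% in mutant untreated cells, and 12.5% with oxLDL against 24.7% untreated in wild type. Those of Ccl6 and Pf4 went the other way. Ccl6 made up 14.3% and 10.5% in mutant oxLDL, against 5.18% and 3.14% in mutant untreated cells, and 12.3% with oxLDL against 5.45% untreated in wild type. Pf4 made up 19.4% and 16.3% in mutant oxLDL, against 8.19% and 6.13% in mutant untreated cells, and 11.4% with oxLDL against 5.26% untreated in wild type. Cxcl1, Cxcl2, Cxcl10 and Ccl7 filled the last 4 ranks in every library. Shares sum to a whole, so a larger share of Ccl6 or Pf4 is not by itself a higher level.

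**Figure D4:**
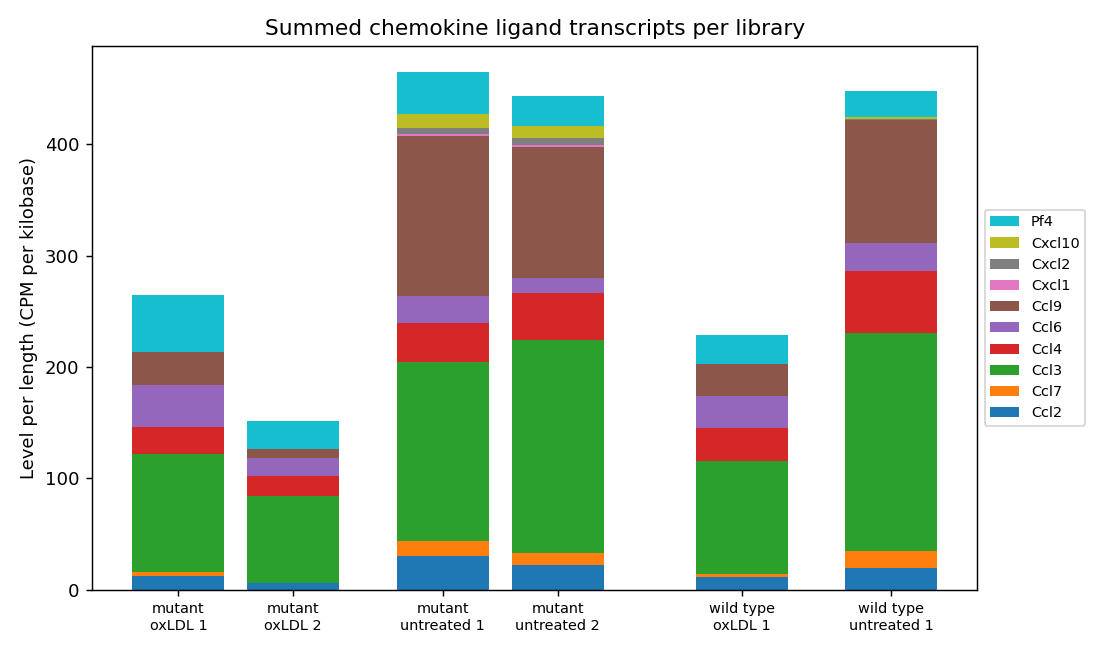
Stacked levels of the 10 chemokine ligands in CPM per kb of transcript, 1 bar per library. The oxLDL bars are 265, 151 and 229 CPM per kb high and the untreated ones 465, 444 and 448, with Ccl3 the tallest band in each.

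The ligands also differed in how like each other their profiles were, measured as the root mean square difference of log2 CPM over the 6 libraries after centring each gene on its mean. Ccl3 and Ccl4 were nearest to each other, at 0.18, followed by Ccl7 and Ccl9 at 0.35. Ccl2 was nearest to Ccl3, at 0.38, Ccl6 and Pf4 to each other, at 0.39, and Cxcl1 to Ccl2, at 1.21. Cxcl2 and Cxcl10 were nearest to each other at 0.99. Among the other genes tested, the nearest to Ccl3 were Dennd2c (0.08) and Vgll4 (0.09), to Ccl4 Vamp5 (0.09) and Cdk2ap1 (0.11), and to Ccl2 4930513N10Rik (0.18) and Abcg3 (0.20). Ccl7 was nearest to Arhgap27os3 (0.38) and D630023F18Rik (0.39), and Ccl9 to 2010002M12Rik (0.24) and Pla2r1 (0.29). Ccl6 was nearest to Thbs1 (0.15) and Lsp1 (0.21), Pf4 to Kctd12b and Fbxl21 (0.10 each), Cxcl1 to St6galnac2 (0.31) and Slc6a4 (0.37), Cxcl2 to Nptx1 and Olr1 (0.50 and 0.51) and Cxcl10 to Cd207 (0.59) and Nox1 (0.66). Counts of Cdk2ap1 are uncertain, since 52.6% of its 75-base stretches occur in other genes, and those of D630023F18Rik share 11.3%.

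Of the receptors of these ligands described here, Ccr2 and Ccr3 fell with oxLDL in the mutant, and Ccr1, Cxcr2 and Cxcr3 did not pass the test. Ccr2, the receptor of Ccl2 and Ccl7, had 0.324 and 0 CPM in mutant oxLDL, against 6.97 and 6.86 CPM in mutant untreated cells (log2 fold change -5.24 ± 0.69, SE, adjusted p = 0.00325), and 0.831 CPM with oxLDL against 5.98 CPM untreated in wild type. Ccr3, an eosinophil receptor that also binds Ccl7, had 0.203 and 0.198 CPM in mutant oxLDL, against 27.6 and 25.8 CPM in mutant untreated cells. Ccr2 and its ligands Ccl2 and Ccl7 were thus lower together. Ccr1, which binds Ccl3, Ccl6 and Ccl9, had 4.99 and 4.16 CPM in mutant oxLDL, against 4.85 and 4.03 CPM in mutant untreated cells (0.05 ± 0.23, adjusted p = 0.890). Cxcr2 was at -0.50 ± 0.22 (adjusted p = 0.129) and Cxcr3 at -0.65 ± 0.32 (adjusted p = 0.169).

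The wider pathway was read from 6 gene lists, each count of which stands against 19.1% of all genes called lower and 16.5% higher. Of 30 chemokine receptors and syndecans, which hold chemokines at the cell surface, 14 were tested, 8 were lower and 2 higher in mutant oxLDL than in mutant untreated cells, with a median log2 fold change of -1.62. The fractalkine receptor Cx3cr1 had 3.12 and 5.70 CPM in mutant oxLDL, against 576 and 571 CPM in mutant untreated cells, while Cxcr4 was at 0.97 ± 0.19 (adjusted p = 0.0110) and Ccrl2 at 1.56 ± 0.32 (adjusted p = 0.0136). Of 28 other ligands 9 were tested, 3 were lower and none higher, with a median of -0.50, where 19.1% of all genes were lower. Those 3 were Cxcl16 at -2.12 ± 0.16 (adjusted p = 0.000639), Cx3cl1 at -3.16 ± 0.50 (0.00584) and Ccl12, a CCR2 ligand of mice, at -3.78 ± 0.87 (0.0201). Ccl12, and Ccr1l1 among the 8 lower genes of the receptor list, reached the filter level of 0.563 CPM in untreated libraries alone. Both therefore had to be lower with oxLDL to be tested.

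Of 31 NF-kB and AP-1 genes 30 were tested, 18 were lower and 8 higher, with a median of -0.93, against the same 19.1% and 16.5% over all genes. Nfkbiz, an NF-kB cofactor, had 8.35 and 8.12 CPM in mutant oxLDL, against 274 and 414 CPM in mutant untreated cells, and Fos, an AP-1 subunit, had 9.49 and 9.61 CPM against 167 and 201 CPM. Bcl3, a nuclear partner of NF-kB subunits, was at -3.08 ± 0.18 (adjusted p = 0.000377) and the adaptor Myd88 at -1.61 ± 0.10 (0.000417). Rela, the transactivating NF-kB subunit, was at 0.02 ± 0.11 (adjusted p = 0.903). The list holds inducers and inhibitors alike: the inhibitors Nfkbia and Tnfaip3 were lower too, at -2.53 and -0.92.

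Of 14 cytokine and cytokine receptor genes that act upstream of chemokines, 12 were tested, 5 were lower and 2 higher, with a median of -0.37, against 19.1% lower and 16.5% higher over all genes. Il6 is among the 12 through mutant untreated replicate 2 alone and was at 0 in both mutant oxLDL libraries. Tnf had 10.6 and 13.3 CPM in mutant oxLDL, against 69.9 and 120 CPM in mutant untreated cells, and Il1b had 0 and 0.594 CPM against 10.1 and 12.0 CPM. Il1r1, the interleukin-1 receptor, had 91.7 and 82.7 CPM in mutant oxLDL, against 11.5 and 7.57 CPM in mutant untreated cells, and Il1a was higher at 2.82 ± 0.54 (adjusted p = 0.0107). The interferon gamma receptor chain Ifngr1 was at -1.06 ± 0.09 (adjusted p = 0.000897). All 9 interferon transcription factors were tested, 6 were lower and none higher, with a median of -1.28, against 19.1% of all genes lower. Irf7 had 10.8 and 8.17 CPM in mutant oxLDL, against 169 and 144 CPM in mutant untreated cells, Irf9 was at -1.59 ± 0.10 (adjusted p = 0.000419) and Stat2 at -1.99 ± 0.16 (adjusted p = 0.000706).

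Of 13 symbols for factors that decay or stabilise chemokine messages, 11 were tested, 5 were lower and none higher, with a median of -0.21, against 19.1% of all genes lower. Zfp36, which binds AU-rich elements and speeds decay, had 35.0 and 33.6 CPM in mutant oxLDL, against 154 and 139 CPM in mutant untreated cells. Its relative Zfp36l1 was at -2.77 ± 0.14 (adjusted p = 0.000284), and the RNases Zc3h12a and Zc3h12c were at -2.17 ± 0.16 (0.000608) and -1.48 ± 0.11 (0.000592). Message stability was not measured in these libraries. Between genotypes across treatments, where 4.05% of all genes were called, 0 genes of the receptor list, 1 other ligand, 1 NF-kB and AP-1 gene, 1 cytokine gene, 2 interferon factors and 1 decay factor were called. These were Cxcl14, higher in the mutant at 4.06 (adjusted p = 0.0328), Irak4, lower at -0.62 (0.0400), Il1r1, higher at 5.61 (0.00986), Irf7 and Irf5, lower at -1.38 (0.0122) and -0.78 (0.0480), and Zfp36l1, lower at -0.96 (0.0171). In untreated cells 4 genes of the receptor list were higher in the mutant and none lower: the syndecan Sdc1 and the receptors Cxcr4, Cx3cr1 and Ccr3, at log2 fold changes of 3.99, 1.35, 1.30 and 1.2. There 1 other ligand was higher and none lower, 3 NF-kB and AP-1 genes were higher and 3 lower, and 1 cytokine gene was higher and none lower. The interferon factors had 2 lower and the decay factors 1, with none higher in either list, and over all genes 4.24% were higher and 2.82% lower.

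**Figure D5:**
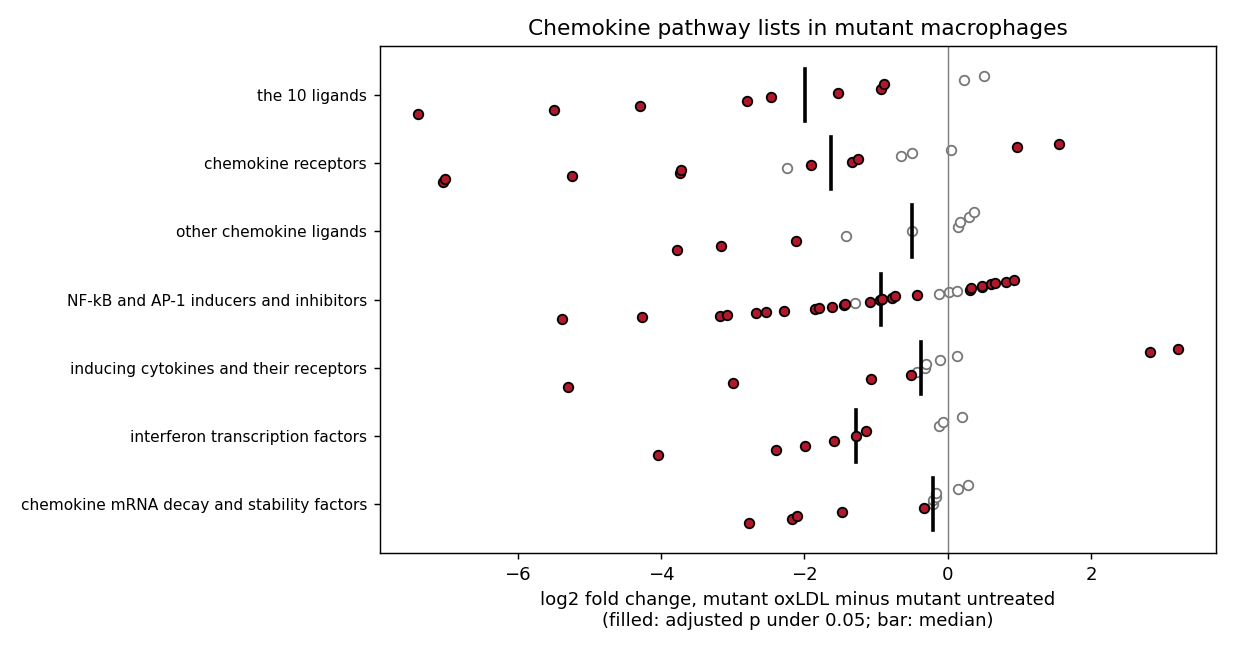
Log2 fold change, mutant oxLDL minus mutant untreated, of each tested gene in the 10 ligands and in 6 pathway lists, 1 point a gene staggered vertically, filled where the adjusted p was under 0.05, with a bar at the list's median. The medians run from -2.00 for the ligands to -0.21 for the decay factors. That of the ligands includes Cxcl1, Cxcl2 and Cxcl10, whose direction was fixed by the filter. Without them the middle value is that of Ccl3, at -0.93. Il6, at 0 counts in both mutant oxLDL libraries, is counted in its list but not drawn.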

How the data were processed

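RNA of 6 samples of mouse bone marrow-derived macrophages was prepared with a stranded kit for polyadenylated RNA and sequenced as paired ends, per the labels' protocols. Per the submitters' processing notes, reads were aligned with Bowtie2 2.1.0 and quantified with RSEM 1.2.15. The human build hg19 is named there, while 23933 of the 24054 gene names match mouse tables, and the mouse build used for counting is not stated in these sources. The deposited expected counts from RSEM, 1 value a gene, divide reads that fit several genes, and a TMM-normalised signal per gene made with edgeR, per the submitters' processing notes. The deposited signal values were 100% whole multiples of 1 read, within a tolerance of 0.01.

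Expected counts were rounded and 12689 of 17143 genes with any count were kept by filterByExpr (at least 0.563 CPM in at least 1 library and 15 counts in all). The quasi-likelihood test of edgeR 4.0.16 under R 4.3.3 was run with TMM factors over all these genes, with Benjamini-Hochberg adjustment and a threshold of 0.05. A model of 4 group means gave the comparisons within a treatment or genotype and the interaction, and an additive model gave those across the other factor. The SE is the size of the log2 fold change divided by the square root of F. Wild-type libraries, 1 per treatment, were compared by size with a prior count of 2, beside that model's test. Pooled ratios have exact binomial 95% counting intervals. Alternatives were DESeq2 1.42.0, limma 3.58.1 on log2 of the deposited signal plus 1, other scalings, no filter, left-out libraries and a replicate block. All 10 ligands are named, with their receptors, up to 4 genes of smallest p per pathway list, called or contrasting genes chosen after their values were seen, and the 2 genes of most similar profile per ligand. Some genes that this rule names are left out of the text, while list counts still hold them. Members and lists were chosen with earlier results of these data known. The tests were checked on simulated data. Promoters come from RefSeq, GRCm38.p6.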

Additional observations from a re-analysis of the deposited data

How the results depend on the processing

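Each comparison was refitted under other scalings, tests and filters and with each library left out. Without 1 of the wild-type libraries, genotype across treatments became the genotype comparison within the treatment that wild type still had. In the same fits oxLDL across genotypes became oxLDL in the mutant. With oxLDL in the mutant, 8 ligands were called under each setting that kept all libraries, and 5 to 9 with a library left out. Across genotypes 8 were called under each such setting except limma, which called 7, losing Cxcl1 (adjusted p = 0.0690), and 6 to 8 with a library left out. Leaving out a library gave 0 to 3 calls for genotype in untreated cells, 0 to 3 for genotype across treatments, and 0 to 1 both for genotype with oxLDL and for the interaction. For genotype across treatments, against 0 in the main analysis, library size without TMM called 1 (Cxcl10), leaving out pancreatic genes 1 (Cxcl10), DESeq2 2 (Ccl4 and Cxcl10) and no filter on low counts 3 (Ccl4, Cxcl2 and Cxcl10). Over all genes these settings called, in the same order, 465 of 12689, 565 of 12673, 1513 of 12689 and 1387 of 17143. In wild type, no minimum level made 4 ligands at least 2-fold lower in place of 2. The cause of these moves was not tested.

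Every value that changed sign belonged to a ligand that was not called in that comparison. Without TMM, Ccl7 across treatments became 0.0084, and the interaction became -0.077 for Ccl3 and -0.019 for Pf4. Ccl2 across treatments became -0.011 with DESeq2 and -0.032 with limma. The interaction of Ccl4 became 0.0058 without the filter and 0.0101 with limma, where that of Cxcl10 became -1.97 and the genotype value of Ccl7 with oxLDL became -0.12. With a library left out, oxLDL in the mutant ran between -0.25 and 1.01 for Ccl6 and between -0.40 and 0.67 for Pf4, and across genotypes between -0.051 and 0.67 and between -0.16 and 0.46. Genotype across treatments ran from -0.38 to 0.39 for Ccl2, -0.71 to 0.17 for Ccl7, -0.65 to 0.24 for Ccl9 and -0.20 to 2.92 for Cxcl2. These ranges include the fits without a wild-type library, which compared the genotypes within 1 treatment only. Genotype with oxLDL ran from -1.005 to 0.045 for Ccl2, -1.99 to 0.95 for Ccl7, -0.37 to 0.076 for Ccl3, -0.83 to 0.43 for Ccl6, -1.81 to 0.036 for Ccl9, -0.32 to 0.32 for Cxcl1, -2.20 to 0.51 for Cxcl2 and -0.091 to 0.98 for Pf4. The interaction ran from -1.74 to 1.2 for Ccl7, -0.22 to 0.22 for Ccl3, -0.23 to 0.18 for Ccl4, -0.47 to 0.79 for Ccl6, -2.41 to 2.12 for Cxcl10 and -0.56 to 0.51 for Pf4.

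A replicate block by the number in the sample names called 8 ligands in the mutant, 8 across genotypes and 0 for the interaction. The labels do not say that a number marks a shared animal, and the deviations of the mutant pairs correlated at r = 0.204 over 12689 genes. Without TMM the median of all genes in the untreated genotype comparison moved to 0.126, with 211 of 1046 calls lower in place of 358 of 896. The reads recovered from the deposited signal, and the counts without Lyz2 and Rn45s, both chosen after seeing the data, called 8, 8, 0, 3, 0 and 0 ligands over the 6 comparisons, as in the main analysis.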
